A study of Mus musculus with 2 samples.

Results

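The cells described here are called dorsal Zic1 mesenchyme without En1. They held RNA of the transcription factor genes Zic1 or Zic4 and of Vtn, the gene of the secreted glycoprotein vitronectin, but no En1 RNA was read. They were chosen by counts in single cells, and their position in the embryo was not measured. The name is a label for the group: 8 E11.5 cells held both Abcc9 and Kcnj8, genes known from pericytes, and little of what marked the others. A cell was a member when its summed unique molecular identifiers (UMIs, each counting 1 captured RNA molecule) of Zic1 and Zic4 came to 3 or more, when it held at least 1 Vtn UMI, and when En1, Pax3, Myf5, Sox2, Cdh5 and Sox10 were all at 0. Of 19446 cells that passed the quality limits, 80 were members: 26 of 9851 at embryonic day (E) 9.5 and 54 of 9595 at E11.5.

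The cells came from single-cell RNA sequencing of interlimb somites, the segmental blocks of trunk mesoderm between the limb buds, from wild-type C57BL/6 mouse embryos. At each stage 3 embryos were pooled into 1 library, so a difference between the stages and a difference between the libraries cannot be told apart. No agent or allele was applied at either stage, and the study used the data to follow muscle precursors. The E9.5 library held 149368952 UMIs in 10121 barcodes and the E11.5 library 136655763 UMIs in 10167 barcodes. Cells of 1 library are not replicates. No test between groups was therefore possible, and every interval given here is a 95% interval that covers counting error only.

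Zic proteins are zinc finger transcription factors found in the dorsal neural tube and in the mesenchyme close to it. Dorsal trunk mesenchyme gives rise to dermis, to connective tissue of the vertebral arches and to the meninges, while En1 marks the central dermomyotome, the part of the somite that forms back muscle and part of the dermis. Vitronectin binds integrins and lies in the extracellular matrix, Cthrc1 encodes a secreted protein linked to collagen turnover and Wnt signalling, and Lamc3 encodes a laminin chain of basement membranes.

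Members were rare at both stages. They made up 0.264% of the kept cells at E9.5 (exact Clopper-Pearson interval 0.172 to 0.386) and 0.563% at E11.5 (0.423 to 0.734). The share was higher at E11.5 by 0.299 percentage points (Newcombe interval 0.119 to 0.489). Depth was close to that of the rest at E9.5, where a member held a median of 12520 UMIs and a kept cell 12462, while at E11.5 the medians were 10373 and 12479. The barcodes of 30 cells occurred in both libraries, 25 of them in kept cells of both, and none of those belonged to a member. Doublets were not removed: a doublet caller (Scrublet) called 6.75% of barcodes in the earlier library, with 0 members among them, and 4.00% in the later one, with 1 member.

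The Vtn step decided membership. Of the kept cells, 886 E9.5 cells and 1801 E11.5 cells held 3 or more UMIs of Zic1 and Zic4 together, but just 51 and 63 of these also held Vtn. At E9.5 the zero rule then removed cells with Pax3 (22 cells), Myf5 (11) and Sox2 (10), genes of somite and muscle precursors and of neural progenitors. At E11.5 it removed 3 cells with En1, 3 with the endothelial gene Cdh5 and no more than 2 for any other gene.

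Both thresholds were thinly filled at E9.5. Just outside the Zic threshold, 7 E9.5 cells and 4 E11.5 cells met the rest of the rule with 2 UMIs, and just inside it 6 and 3 cells held 3 UMIs. For Vtn, 207 E9.5 cells and 1160 E11.5 cells met the rest of the rule with no UMI, and 17 and 10 members held a single UMI. Most E9.5 members therefore rested on 1 Vtn molecule, and most E11.5 members did not.

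The chosen genes themselves are given as a description. Zic1 lies on the minus strand of chromosome 9 (GRCm38, chr9:91358058-91365810), and Zic4 on the plus strand at chr9:91362413-91389348, so the annotated genes overlap at chr9:91362413-91365810, where reads of the pair are told apart by strand. The 3′ end of each gene lies outside the overlap. Whether strand was used in counting is not given in the sources used here. Zic1 ranged from 1 through a median of 4 to 18 UMIs per member at E9.5, and from 0 through 7 to 19 at E11.5. Zic4 ranged from 0 through 0.5 to 10 and from 0 through 3 to 9. The E11.5 members held more of both genes, but the ranges overlapped throughout.

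Vtn (chr11:78499091-78502324, plus strand) ranged from 1 through 1 to 7 UMIs per member at E9.5 and from 1 through 5 to 26 at E11.5. Summed over the members, its level was 136 UMIs per 1000000 in the E9.5 members and 605 in the E11.5 members, against 2.63 and 1.94 in all other kept cells. Vtn UMIs were found in 0 of 250 endothelial cells at E9.5, which allows a share of up to 1.20%, and in 0 of 66 at E11.5, which allows up to 4.55%. Endothelial cells here are kept cells with 2 or more Cdh5 UMIs and no Sox2, Sox10 or Myf5.

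Of the markers that the rule did not use, Cthrc1 (chr15:39076932-39087121, plus strand) was found at both stages. It ranged per member from 0 through a median of 1.49 to 9.35 UMIs per 10000 at E9.5 and from 0 through 5.32 to 22.2 at E11.5. UMIs of Cthrc1 were present in 22 of 26 and 52 of 54 members. In endothelial cells, taken as a class that should lack it, the shares were 5.60% and 24.2%, at median depths of 14988 and 17929 UMIs. After every cell was thinned to 5000 UMIs the shares were 61.5% of members and 2.52% of endothelial cells in the earlier library, and 78.4% and 11.1% in the later one. No E9.5 member and 3 E11.5 members were too shallow to be thinned, against 12 and 3 endothelial cells.

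Lamc3 (chr2:31887291-31946539, plus strand) was mostly found at E11.5. It was present in 7 of 26 members at E9.5, each with 1 UMI, and in 41 of 54 at E11.5, with up to 7 UMIs in a cell. Thinned to 5000 UMIs, the shares were 15.4% and 54.9%. No endothelial cell held Lamc3 at either stage. Of the markers that the rule did not use, Cthrc1 and Lamc3 were thus found in most E11.5 members, whereas Lamc3 was found in a minority of those at E9.5.

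**Figure D1:**
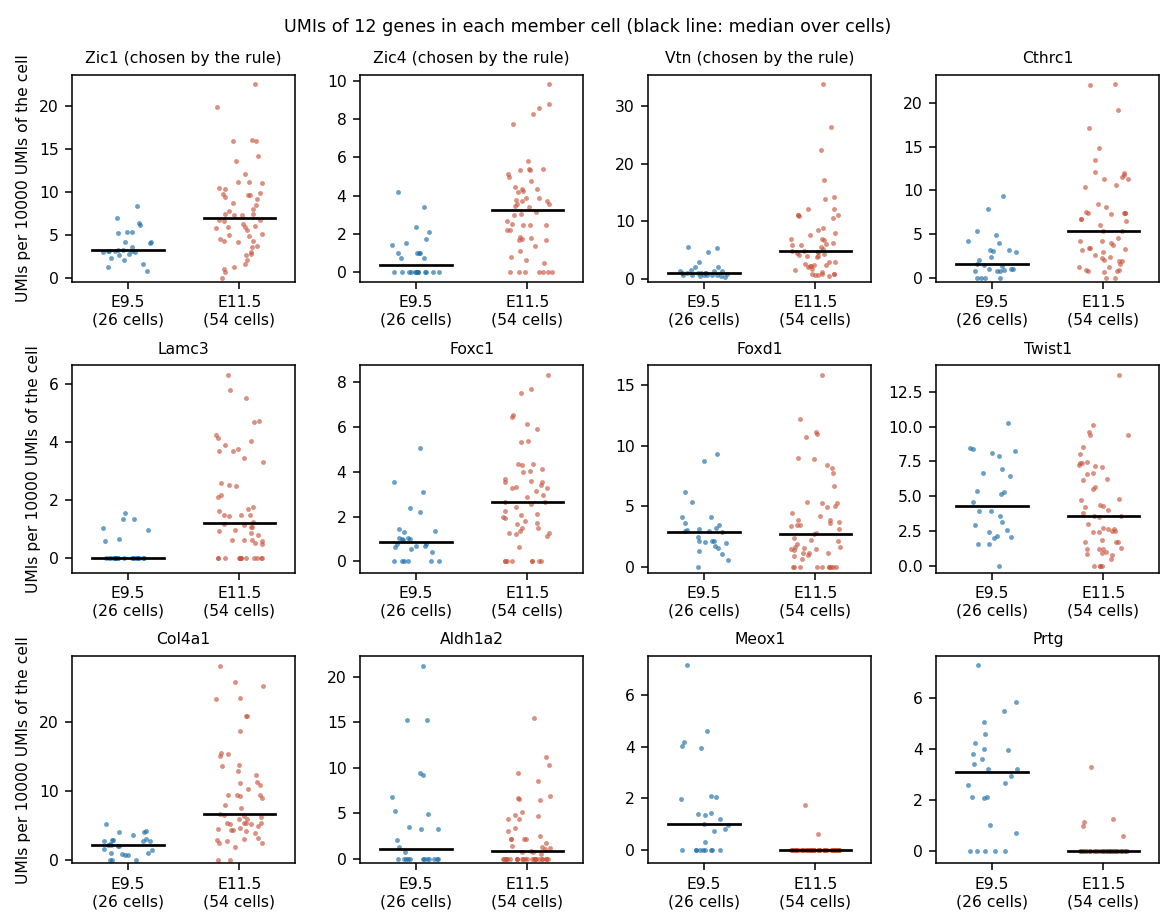
UMIs of 12 genes in each member, as UMIs per 10000 of the cell's own total (y axis, linear), with 1 point a cell, the 26 E9.5 members on the left and the 54 E11.5 members on the right of each panel, and a black line at the median. Lamc3 lies at 0 in most E9.5 points and above 0 in 41 of the 54 E11.5 points, while Twist1 covers a like range at both stages.

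Other cell types were looked for by their marker lists. The lists for muscle (7 genes), roof plate (8 genes), intermediate mesoderm (5) and white blood cells (6) summed to 0 UMIs over the E9.5 members. At E11.5 white blood cell genes were again at 0, Myod1, Pax7, Met and Lbx1 of the muscle list were at 0, and the whole muscle list came to 11.9 UMIs per 1000000 against 1131 in the other kept cells. Endothelial genes summed to 20.7 UMIs per 1000000 in the E9.5 members and 71.4 in those of E11.5, with Pecam1 at 0 at both stages, against 3159 and 3914 in endothelial cells. In the other kept cells they summed to 162 and 64.4 and in Zic cells without Vtn to 23.4 and 26.6, so that the E11.5 members stood above both. Blood globin RNA, which leaks from red cells, was low: the red blood cell list summed to 23.7 and 73.1, against 4600 and 11660 in the other kept cells.

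Neural genes were not all absent. At E11.5 Sox1, Sox3, Pax6, Hes5 and Dbx1 were at 0, but Fabp7, a fatty acid binding protein gene of radial glia, reached 144.5 UMIs per 1000000 and Nes 120.7. In cells with Zic and Sox2 RNA (at least 3 Zic1 and Zic4 UMIs and at least 2 of Sox2, called neural Zic cells below) the list of 8 neural progenitor genes summed to 3734, against 265 in the members, 265 in the other kept cells and 49.0 in Zic cells without Vtn. Lists for lateral plate (11.9 and 62.9 UMIs per 1000000 at the successive stages), floor plate (14.8 and 23.8), epithelium (8.89 and 11.9), tendon (2.96 and 35.7) and neurons (8.89 and 74.8) each summed to less than in the other kept cells. Neural crest and glia genes, nearly all of it Ets1, summed to 80.0 and 109 in the members, to 91.2 and 109.5 in the other kept cells and to 60.7 and 42.0 in Zic cells without Vtn. The part of other cells in these values was not tested.

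**Figure D2:**
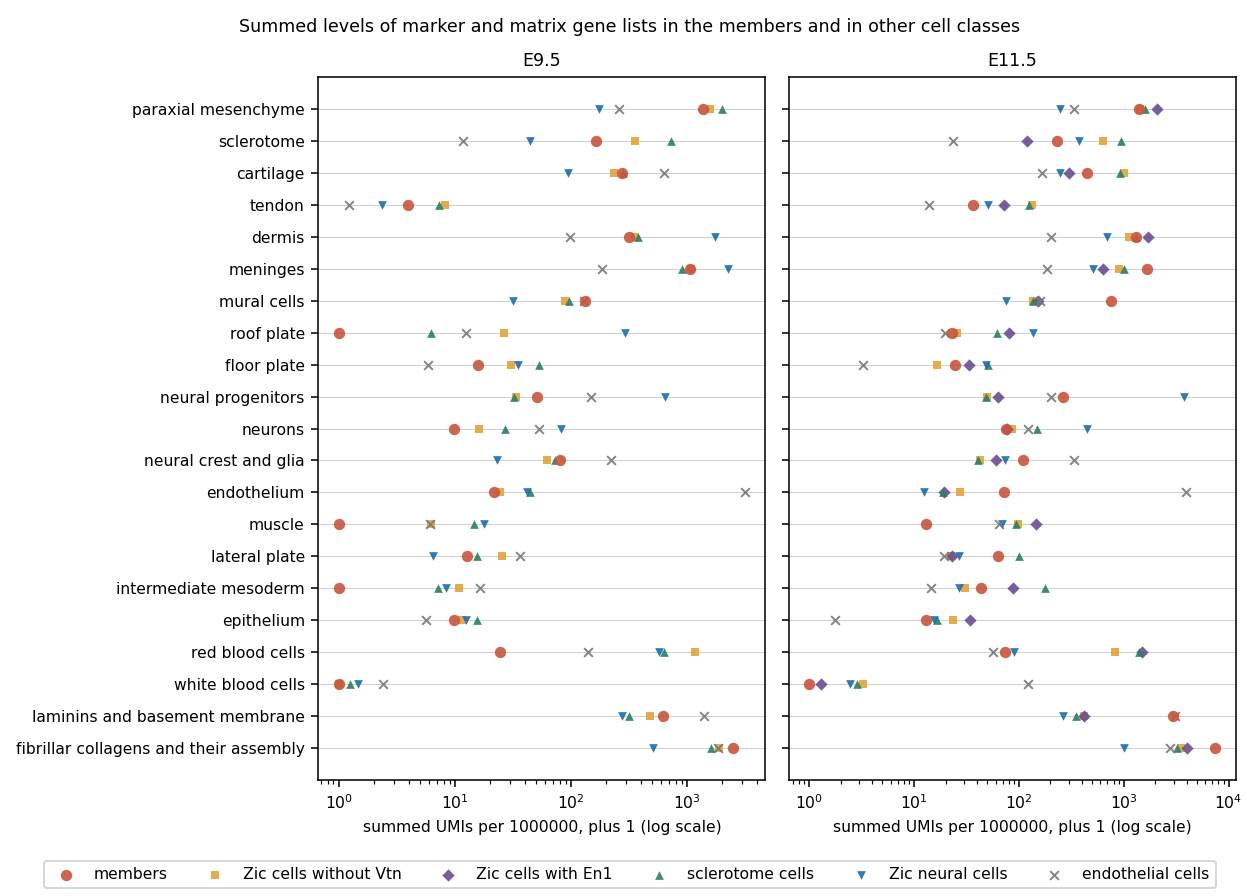
Summed levels of marker and matrix gene lists (UMIs per 1000000 plus 1, log scale) at E9.5 on the left and E11.5 on the right, one symbol for each cell class. The basement membrane list stood at 2944 in the E11.5 members, close to endothelial cells (3066) and well above the other mesenchymal classes, while endothelium, muscle and blood lists were low in the members.

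Clustering of all kept cells without the 9 genes of the rule placed the members differently at the 2 stages. At E9.5, 25 of 26 members fell in a cluster of 2545 cells led by Lum and by Pax1, and made up 0.982% of it. At E11.5, 49 of 54 fell in a cluster of 492 cells and made up 9.96% of it. The leading genes of that cluster included Lamc3, Kcnj8, Igfbp7, Rgs5, Itih5, Pltp, Zic2 and Zic5. Of the 15 nearest neighbours of a member, 12.1% were members in the E9.5 library and 43.0% in the E11.5 library, against 0.264% and 0.563% of all kept cells. The remaining E9.5 member lay in a cluster led by Tnnc2 and Myog. Of the remaining E11.5 members, 3 lay in a cluster of 1836 cells whose leading genes included Nr5a2, Uncx and Pax9. Another lay in a cluster led by Pou4f3, Gm27199 and Lhx5, and 1 in a cluster led by Pmel and Sox3, whose cells had a median of 3529 UMIs.

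Against all other kept cells of the same library, more genes were past 2-fold in the members at E11.5 than at E9.5. More genes also had enough UMIs at E11.5. Over those with enough at both stages, the counts of higher genes were close, at 51 and 53. Of 1936 genes with enough UMIs at both stages (at least 100 in members and compared cells together, and at least 30 on one side after scaling), 27 were 2-fold or more higher in the members at each of them, and 11 were lower. These 27 were 52.9% of the 51 such genes higher at E9.5 and 50.9% of the 53 higher at E11.5. Over each stage alone, 53 of 1967 genes (2.69%) were higher at E9.5 and 24 (1.22%) were lower, and 373 of 3761 (9.92%) were higher at E11.5 and 123 (3.27%) lower. Since the rule chose the cells by counts, these numbers describe the members and are not evidence about them. A gene scarce in the compared cells passed the minimum only where the members were high, and a gene scarce in the members only where the compared cells were high. Either way its direction was fixed, so counts and medians over the genes of a list are a description too.

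Among the genes highest at both stages were Sparcl1, a secreted matrix glycoprotein gene related to Sparc (log2 ratio 3.11 in the earlier library and 3.66 in the later one), and Lum, which encodes the collagen-binding proteoglycan lumican (3.25 and 2.64). Aldh1a2, the enzyme that makes retinoic acid in the embryo, followed with 2.33 and 2.48. Cthrc1 stood at 3.23 and 2.18. The 20 top genes also held Flrt2 (2.43 and 2.35), Col3a1 (2.30 and 1.89), Col4a1 (1.39 and 3.40), the versican gene Vcan (1.36 and 1.96), and Cdh11, a cadherin of mesenchyme (1.97 and 2.08). The forkhead gene Foxd1 was higher by 1.33 and 1.54. The 5 lowest genes were all globins, with Hbb-y at -7.10 and -7.22 and Hba-x at -8.90 and -7.15, and Hbb-bh1 was at 0 UMIs. Hba-a1 and Hba-a2 are near-identical copies, and their separate values are uncertain.

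Some targets of Wnt signalling were higher in the members than in all other kept cells at both stages. Axin2 and Nkd1 are induced by canonical Wnt signalling and feed back on it. Axin2 was higher than in other kept cells by 1.84 on the log2 scale at E9.5 and by 1.55 at E11.5, and Nkd1 by 1.70 and 1.99. Of 17 Wnt target and inhibitor genes, 4 had enough UMIs at E9.5, of which 3 were higher (Axin2, Nkd1 and Rspo3) and Sfrp2 was lower, beside 2.69% and 1.22% of all genes. At E11.5, Axin2 and Nkd1 of 4 were higher and Sfrp2 lower, beside 9.92% and 3.27%. All of these higher genes passed the minimum through the members alone. Of the Wnt ligands and receptors, 1 of 4 was past 2-fold at E11.5, the receptor gene Fzd10, at 2.20, which passed in the same way. Over all 17 target and inhibitor genes, with no minimum, the summed level of the members was 590 at E9.5 and 464 at E11.5. It was 341 and 406 in other kept cells and 431 and 370 in Zic cells without Vtn. Sclerotome cells stood at 206 and 440, and neural Zic cells at 501 and 284. Zic cells with En1, a class found at E11.5 only, stood above the members, at 718. A high sum was thus not particular to the members at E11.5.

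At E9.5 the members differed little from the Zic cells without Vtn. That class holds the 207 E9.5 and 1160 E11.5 cells that met the rest of the rule with no Vtn UMI. At E9.5, 6 of 1965 genes (0.305%) were 2-fold or more higher in the members and 10 (0.509%) were lower. Of the 5 highest genes by the bound of the interval, Cthrc1 was higher by 1.09 (0.70 to 1.46) and Vim by 1.04 (0.75 to 1.32), whereas Ptn, Tuba1a and Igfbp4 stood below 2-fold. Pax1, the sclerotome transcription factor gene, was lower by 2-fold or more, at 32.6 against 162 UMIs per 1000000 (log2 ratio -2.31). The remaining lower genes by that rank were Peg3, at -1.11, and 3 globins, of which Hbb-y stood at 2.40 when cells were thinned before the rule. Of the 41 gene lists, 23 had a gene with enough UMIs, and 18 of those had no gene past 2-fold.

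At E11.5 the same comparison gave many more genes. Of 3763 genes, 303 (8.05%) were higher in the members and 104 (2.76%) were lower. The E11.5 members held more UMIs in all (588240 against 337403), so more genes could be compared. Lamc3 led with 161.5 UMIs per 1000000 against 4.74 (log2 ratio 5.09, 4.64 to 5.54). It was followed by Heyl, a Notch target of the hairy family (5.00), by Itih5, a hyaluronan-linked matrix protein gene (4.51), by Col4a1 (4.03) and by Arhgap20 (4.32). Lowest were the tendon factor gene Scx (-4.78), 2 globins, the somite gene Meox1 (-3.73) and Fibin (-2.97).

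Genes of the basement membrane, the sheet of laminin and type IV collagen that underlies or wraps cells, summed to more in the E11.5 members than in Zic cells without Vtn or in all other kept cells. Over all 19 genes of that list, with no minimum, the members held 2944 UMIs per 1000000 and Zic cells without Vtn 415. The 12 genes with enough UMIs were 2-fold or more higher (median 2.97 against 0.05 over all genes, of which 8.05% were higher), but 10 of them passed the minimum through the members alone, so that their direction was fixed. The other 2 were Col4a1 and Col18a1. The 12 were the laminin chain genes Lama1, Lama2, Lamb1, Lamc1 and Lamc3, the collagen genes Col4a1, Col4a2, Col4a5 and Col18a1, the nidogen genes Nid1 and Nid2, and Agrn. Over all other kept cells the same 12 were higher (median 3.02 against 0.08, with 9.92% of all genes higher), and 9 of them passed through the members alone. At E9.5 just Col4a1 and Col4a2 had enough UMIs, and both were higher than in all other kept cells (median 1.42 against 0.02, with 2.69% of all genes higher), having passed in that way as well. Over the whole list the members stood at 622 UMIs per 1000000 at E9.5, the other kept cells went from 363 to 432 and the endothelial cells from 1400 to 3066.

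Col4a1 and Col4a2, which encode the paired chains of the most common type IV collagen, lie head to head on chromosome 8. Col4a1 spans chr8:11198423-11312826 on the minus strand and Col4a2 chr8:11312805-11449287 on the plus strand. Col4a1 ranged from 0 through a median of 2.13 to 5.16 UMIs per 10000 in an E9.5 member and from 0 through 6.63 to 28.1 in an E11.5 member. Col4a2 ranged from 0 through 0.68 to 5.54 and from 0.708 through 4.77 to 14.8. At E11.5 every member held Col4a2, and 52 of 54 held Col4a1, while some members of both stages still overlapped. In endothelial cells 98.5% held Col4a1 at E11.5, so its share there is no background. The promoter windows of the pair are shown because both genes were higher together and because the windows share sequence. They run from 250 bases before to 50 bases after the start site, are read 5′ to 3′ on the strand of each gene (RefSeq, GRCm38.p6; Col4a1 chr8:11312777-11313076 minus strand, Col4a2 chr8:11312555-11312854 plus strand), and the capitals mark the 78 bases common to both, which read as reverse complements.
Col4a1: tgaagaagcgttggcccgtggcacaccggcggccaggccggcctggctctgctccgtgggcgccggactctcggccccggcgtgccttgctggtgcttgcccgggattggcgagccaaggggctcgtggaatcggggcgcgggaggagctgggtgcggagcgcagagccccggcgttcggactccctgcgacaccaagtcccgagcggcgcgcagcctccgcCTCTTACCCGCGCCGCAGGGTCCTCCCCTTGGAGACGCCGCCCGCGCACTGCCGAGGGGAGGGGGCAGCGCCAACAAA
Col4a2: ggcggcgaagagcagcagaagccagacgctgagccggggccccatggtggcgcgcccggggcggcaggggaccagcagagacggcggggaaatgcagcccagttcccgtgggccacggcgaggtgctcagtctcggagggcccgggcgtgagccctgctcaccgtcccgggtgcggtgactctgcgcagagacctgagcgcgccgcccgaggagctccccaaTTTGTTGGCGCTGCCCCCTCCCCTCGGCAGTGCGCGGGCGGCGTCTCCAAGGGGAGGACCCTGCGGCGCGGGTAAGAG

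The start sites of the pair lay 21 bases apart. The letters CCAAT were searched on both strands, as were GGGCGG and TATAAA. None of these motifs holds another. CCAAT occurred once in each window, at different places, and 37.4% of 32851 promoter windows of this length held it. GGGCGG occurred once in the Col4a1 window and 3 times in that of Col4a2, with 1 match lying in the shared bases, and 35.7% of all windows held it. TATAAA was in neither window and in 13.6% of all. A match is a description of letters and not of a bound site.

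Some genes of Notch signalling were higher in the E11.5 members. This pathway passes signals between neighbouring cells, from Jag and Dll ligands through Notch receptors to Hes and Hey factors. Of 13 genes, 6 had enough UMIs against Zic cells without Vtn, and 4 of these were 2-fold or more higher, against 8.05% of all genes. Notch1, Jag1 and Heyl passed the minimum through the members alone, and of the other 3 just Hes1 was past 2-fold. The receptor gene Notch1 stood at 163 against 18.8 UMIs per 1000000 (log2 ratio 3.12), and the ligand gene Jag1 at 107 against 11.2 (3.25). The targets Hes1 (1.14) and Heyl (5.00) completed the group, and Notch2 (0.68) was below 2-fold. For Dlk1 (0.75), 110 of 152 UMIs lay in the 8 members with both Abcc9 and Kcnj8 described below, and the other 46 stood at 89.1 against 154 in Zic cells without Vtn. The same 8 cells held 36 of 96 Notch1 UMIs and 30 of 61 of Heyl, and in the other 46 these genes stood at 127 and 65.7. Against all other kept cells the same 4 genes were past 2-fold, 3 of them again having passed through the members alone.

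Genes of the meninges divided. Of 7 genes on that list with enough UMIs, 4 were higher than in E11.5 Zic cells without Vtn: Aldh1a2 (4.04), the tight junction gene Cldn11 (3.07), the chemokine gene Cxcl12 (1.74) and the nuclear receptor gene Nr2f2 (1.49). Over all genes 8.05% were higher and 2.76% lower, and Aldh1a2 and Cldn11 passed the minimum through the members alone. Crabp2, a retinoic acid binding protein gene, was lower (-2.52), and Foxd1 (0.14) and Alcam (-0.06) differed little. Crabp2 passed the minimum through the Zic cells without Vtn alone, which fixed its direction. Ptgds, a gene of mature leptomeninges, was at 0 in the members at both stages. At E9.5, of 5 genes with enough UMIs, none was past 2-fold against Zic cells without Vtn.

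Some somite and skeletal genes were lower in the E11.5 members than in Zic cells without Vtn. The paraxial mesenchyme list summed to 1396 UMIs per 1000000 in the members and 1442 in those cells. Of its 12 genes 4 were lower (Twist2, Meox1, Tcf15 and Snai2), and Foxc1, a forkhead gene of head and somite mesenchyme, was higher by 1.08. These 4 lower genes passed the minimum through the Zic cells without Vtn alone, so their direction was fixed. Twist1, which is found across mesenchyme, differed by 0.22, at 411 against 353 UMIs per 1000000. Of 4 sclerotome genes with enough UMIs, Pax1 and Sox9 were lower and Tbx18 was higher by 1.98. Pax1 passed the minimum through the Zic cells without Vtn alone and Tbx18 through the members alone, which fixed both directions. Of 4 cartilage genes, Sox5, Col2a1 (104 against 489 UMIs per 1000000) and Col9a1 were lower, beside 2.76% of all genes. The direction of Sox5 was fixed, since it passed the minimum through the Zic cells without Vtn alone. The most abundant of the 4 in the members, Col11a1, stood at 187 against 105, under 2-fold. Of the tendon list Scx alone had enough UMIs and was lower, as were 4 globin genes of the red blood cell list, and all 5 passed the minimum through the Zic cells without Vtn alone, which fixed their direction.

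Zic cells with En1 are here kept cells with 3 or more Zic1 and Zic4 UMIs and at least 1 En1 UMI. They also held no Pax3, Myf5, Sox2, Cdh5 or Sox10, so cells with En1 and any of those genes were not counted. This class had 205 cells at E11.5 and 0 at E9.5, so that this contrast exists at E11.5 only. Aldh1a2 was highest over the Zic cells with En1, at 204 against 2.60 UMIs per 1000000 (log2 ratio 6.29). Ppp1r1a, an inhibitor of protein phosphatase 1, followed (5.14), with Itih5 (4.96), Rgs5 (4.76) and the neurotrophin receptor gene Ngfr (4.60). Besides globins, whose direction here changed under other settings, Dmrt2, a gene of the dermomyotome, was lowest, at 0 UMIs against 52.6 per 1000000. The paraxial mesenchyme list summed to 2080 UMIs per 1000000 in the cells with En1, and the dermis list to 1311 in the members and 1721 in those cells.

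Sclerotome cells, taken here as kept cells with 2 or more UMIs of Pax1 and Pax9 and none of the Zic and excluded genes, form the vertebrae and ribs. At E9.5 the members were highest over these 945 cells for the lipoprotein gene Apoe (3.05), Sparcl1 (2.76), Axin2 (2.67), Cthrc1 (2.37) and the Wnt amplifier gene Rspo3 (2.46). At E11.5, over 1027 cells, Rgs5 (6.33), Ppp1r1a (6.01), the phospholipid transfer gene Pltp (5.64) and Itih5 (5.32) were among the highest. At E9.5 the globin genes Hba-x and Hbb-y were lowest, followed by Pax1, which helped to choose the sclerotome cells. The direction of Hbb-y in that comparison changed under other settings. Pax1 ranked first among the lower genes at E11.5, where Emx2 and Tbx1 were at 0 UMIs in the members.

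Against the neural Zic cells (369 cells in the earlier library and 55 in the later one), collagen and mesenchyme genes were highest. Col3a1 stood at 456 against 16.3 UMIs per 1000000 at E9.5 (log2 ratio 4.81), and Lum at 614 against 4.34 at E11.5 (7.14). Crabp1 (-5.46), Crabp2 (-4.72) and the roof plate gene Msx1, which was at 0, were lowest at E9.5. Hes5 and Msx3, genes of the neural tube, were at 0 in the E11.5 members.

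Between the stages, the members differed in both directions. Of 1527 genes with at least 100 UMIs in the members of both stages together, 173 (11.3%) were 2-fold or more higher at E11.5 and 103 (6.75%) were lower. At 1.5-fold the counts were 306 and 302, and since the E11.5 members held more UMIs in all, the minimum kept a gene that was higher at E11.5 more readily than one that was lower. The median log2 ratio was -0.07. The whole interval lay past 2-fold for 84 higher and 39 lower genes. Of the 41 gene lists, 22 had a gene with enough UMIs. Housekeeping genes did not pass 2-fold in either direction (5 genes, median -0.22).

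**Figure D3:**
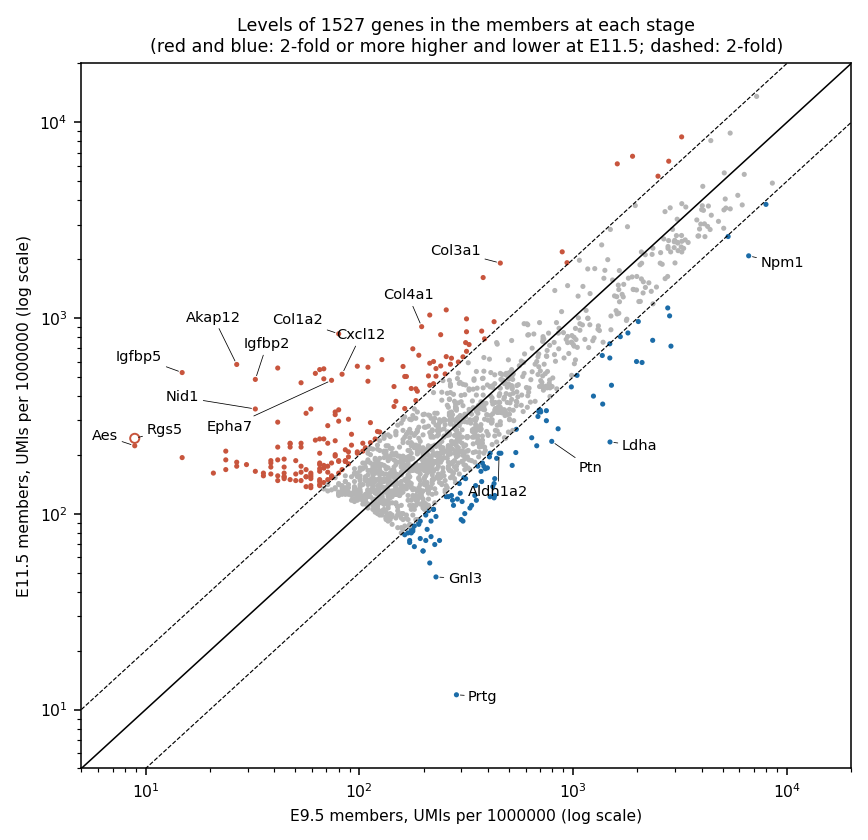
Level of each of 1527 genes in the E9.5 members (x axis) and the E11.5 members (y axis), in UMIs per 1000000 on log scales. Red points mark the 173 genes higher at E11.5 by 2-fold or more and blue points the 103 lower genes, and the open circle marks Rgs5, which had 0 UMIs at E9.5 and is drawn at the value of 3 UMIs.

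Ranked by the bound of the interval nearest 0, Rgs5, Igfbp5, Akap12, Aes and Igfbp2 came first among the higher genes, followed by Sparc. Of 19 basement membrane genes 6 had enough UMIs, and all 6 were higher at E11.5, beside 11.3% of all genes higher and 6.75% lower (Lamb1, Lamc3, Col4a1, Col4a2, Col18a1 and Nid1), with a median of 2.16. A gene with few UMIs at E9.5 could pass the minimum through E11.5 alone, as 4 of these 6 did (all but Col4a1 and Col4a2), so the median and count are a description. Col4a1 went from 196 to 904 UMIs per 1000000 (log2 ratio 2.21, 1.84 to 2.60), Lamc3 from 20.7 to 161.5 (2.96, 1.86 to 4.31) and Nid1 from 32.6 to 343 (3.40, 2.53 to 4.42). Of 10 genes of fibrillar collagens and their assembly, 8 were higher and none lower, with a median of 1.98, beside the same shares of all genes, and 5 of the 8 passed through E11.5 alone. Col3a1 went from 456 to 1911, Col1a2 from 80.0 to 831 and Sparc, which encodes a collagen-binding glycoprotein, from 41.5 to 556. The collagen chaperone gene Serpinh1 (0.30) and the lysyl hydroxylase gene Plod2 (0.13) stayed below 2-fold.

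Several insulin-like growth factor genes were higher too. Of 7 genes with enough UMIs 6 were higher at E11.5, beside 11.3% of all genes, and 5 of the 6 (all but H19) passed the minimum through E11.5 alone: Igf1 (2.99), Igf2 (3.07), H19 (1.97), which is expressed from the same imprinted region as Igf2, Igf2r (1.82), and the binding protein genes Igfbp2 (3.90) and Igfbp5 (5.15). Igfbp4 was nearly level, at 516 and 546 UMIs per 1000000. Most of these stage differences were not limited to the members. In Zic cells without Vtn the stage ratios were 3.76 for Igf1, 2.39 for Igf2, 2.00 for H19 and 0.65 for Igf2r. Those of Igfbp2 and Igfbp5 were 2.35 and 4.15 there, and Igf1 gave 6.78 in sclerotome cells. Igfbp5 was spread unevenly, in 3 of 26 E9.5 members and 27 of 54 E11.5 members, with up to 46.3 UMIs per 10000 in 1 cell. In endothelial cells 17.2% and 15.2% held Igfbp5, and in thinned members 3.85% and 45.1%.

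Further signalling and guidance genes were among the higher ones. Epha7, an ephrin receptor gene, ranged from 0 through a median of 0.682 to 3.99 UMIs per 10000 at E9.5 and from 0 through 4.26 to 18.4 at E11.5. Cxcl12 ranged from 0 through 0.75 to 3.16 and from 0 through 5.23 to 24.1. For both genes the E11.5 median lay above the highest E9.5 member. Efnb1 (2.40), Nrp1 (2.10), Notch1 (1.20), Hes1 (1.62), Id3 (1.64) and Foxc1 (1.38) were also past 2-fold. Notch1 went from 71.1 to 163 UMIs per 1000000, and to 127 without the 8 members with both Abcc9 and Kcnj8, which is under 2-fold. Akap12, a scaffold gene for protein kinases, went from 26.7 to 580 UMIs per 1000000 (4.44).

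Rgs5, a regulator of G protein signalling known from pericytes, had 0 UMIs in the E9.5 members and 143 in those of E11.5. It was at least 27.3-fold higher at E11.5, with the E9.5 level set to the 3 UMIs that a count of 0 allows over all members of that stage. It was held by 33 of 54 E11.5 members, by 45.1% of the thinned members and by 0 of 66 endothelial cells. Aes (4.65), a corepressor gene, Islr (3.71), S100a11 (3.01) and Tmem176b (3.14) were also among the top 15, as was AY036118 (2.84), a transcript that lies among repeated ribosomal sequence and is uncertain.

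Prtg ranked first among the lower genes. It encodes the cell adhesion receptor protogenin of early mesoderm and neural tube and went from 285 to 11.9 UMIs per 1000000 (log2 ratio -4.58, -5.93 to -3.48). It ranged from 0 through 3.09 to 7.29 UMIs per 10000 in E9.5 members and from 0 through 0 to 3.30 at E11.5. Ldha (-2.68), Pkm (-1.74) and Pgam1 (-1.64) encode glycolytic enzymes. Ncl (-1.82), Npm1 (-1.67) and Gnl3 (-2.26) encode nucleolar proteins, and Hspd1 (-1.92), Hspe1 (-1.72) and Hsp90aa1 (-1.61) chaperones. Mif, a cytokine gene, went from 2869 to 719 UMIs per 1000000. The growth factor gene Ptn (-1.76), Pa2g4 (-1.82), the ribosomal gene Rpl27 (-1.64) and Erdr1 (-1.79), a gene of repeated sequence whose value is uncertain, completed the 15.

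Of 10 genes of developmental timing, 3 had enough UMIs and 2 of these were lower, beside 6.75% of all genes. Hmga2, a chromatin gene of early tissue, went from 370.5 to 165 UMIs per 1000000 (-1.17) and Igf2bp1 from 273 to 117 (-1.22), while Igf2bp3 stood at 172 and 110.5 (-0.64). Trim71, held by 21 of 26 E9.5 members, was at 0 in the E11.5 members. Lin28a was likewise at 0 there, from 20.7 at E9.5.

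Few cell cycle genes were past 2-fold over all members. Of 12 genes of the G2 and M phases, Ccnb1 was lower (-1.05) and none was higher, with a median of -0.69, and of 9 S phase genes Rrm2 was lower, with a median of -0.49. These shares lie near the 6.75% of all genes that were lower, but both medians lay below that of all genes (-0.07). Over all 18 genes of each list, the summed levels were lower at E11.5 in the members. The G2 and M list went from 5213 to 3381, with Hmgb2 alone from 2030 to 1215. The S phase list went from 2475 to 1501. In Zic cells without Vtn these sums went from 5879 to 5885 and from 2390 to 2100. In the other kept cells they went from 5776 to 5089 and from 2865 to 1944. Top2a, a topoisomerase of dividing cells, was held by 24 of 26 members at E9.5 and 23 of 54 at E11.5 (thinned 76.9% and 23.5%), and its level went from 439 to 233. Without the 8 members with both Abcc9 and Kcnj8 it stood at 184.5 at E11.5, past 2-fold lower. In sclerotome cells 78.3% and 54.2% held it after thinning. For Mki67 the thinned shares were 46.2% and 19.6%, but its summed level was close at both stages, at 148 and 141, so no order is read from the shares. Of the 83 Mki67 UMIs at E11.5, 43 lay in the 8 members with both Abcc9 and Kcnj8, and the other 46 stood at 84.8. The inhibitor gene Cdkn1c was higher at E11.5 by 2.28.

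No trunk Hox gene reached 100 UMIs over the members of both stages together, so none was given a ratio. They summed to 201.5 UMIs per 1000000 over 26 genes in the E9.5 members and to 1306 in those of E11.5, against 775 and 1172 in the other kept cells. Hoxa7, Hoxa9, Hoxb9, Hoxc6, Hoxc8, Hoxc9 and Hoxc10, which mark trunk levels, were at 0 in the E9.5 members. Hoxc6 and Hoxc8 reached 134 and 153 at E11.5. The Zic cells without Vtn summed to 289 and 1739. Where along the trunk the members of each stage lay was not tested.

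Many of these stage differences were shared with other cells. Of the 173 genes higher in the members at E11.5, 81 (46.8%) were also 2-fold or more higher at E11.5 in all other kept cells, against 6.55% of the 1527 genes, and 71 (41.0%) in Zic cells without Vtn, against 5.37%. Of the 103 lower genes, 23 (22.3%) were lower in other kept cells, against 2.03%, and 29 (28.2%) in Zic cells without Vtn, against 3.08%. Sparc (2.83 in other cells), Ldha (-1.67) and Prtg (-5.61) were among the shared genes. All classes come from the same 2 libraries, so a difference between libraries would reach each of them.

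Other genes had a stage ratio in the members unlike that elsewhere. Col4a1 differed between the stages by 2.21 in members, by 0.20 in other kept cells, by -1.36 in Zic cells without Vtn and by -0.23 in sclerotome cells. Epha7 gave 2.70, 0.22, -0.09 and -0.22 in the same order. Ptn was lower in the members (-1.76) but higher in other kept cells (1.39) and in sclerotome cells (2.60), and gave -0.05 in Zic cells without Vtn. Whether these stage differences differ between the classes could not be tested with 1 library a stage.

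Aldh1a2 (chr9:71215789-71296243, plus strand) was lower at E11.5 in the members, from 450.5 to 204 UMIs per 1000000 (log2 ratio -1.14, -1.50 to -0.79), and by more in Zic cells without Vtn, from 393 to 12.4 (-4.98), and in sclerotome cells, from 196 to 10.7 (-4.20). It ranged per member from 0 through 1.06 to 21.2 UMIs per 10000 at E9.5 and from 0 through 0.812 to 15.4 at E11.5, and was held by 14 of 26 and 30 of 54 members. Thinned to 5000 UMIs, 50.0% and 43.1% of members and 3.36% and 1.59% of endothelial cells held it. At E9.5 members and Zic cells without Vtn were thus close, and at E11.5 they were not.

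**Figure D4:**
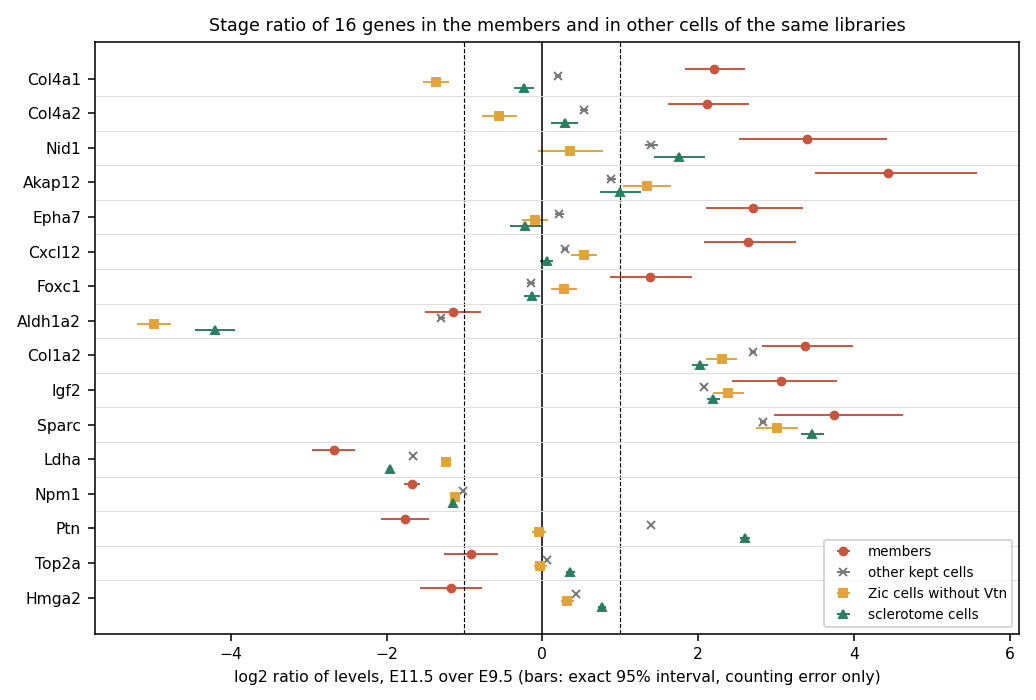
Log2 ratio of the E11.5 over the E9.5 level of 16 genes (x axis; genes as rows) in the members, in all other kept cells, in Zic cells without Vtn and in sclerotome cells, with 95% intervals for counting error. Col4a1 and Epha7 lie to the right of 2 in the members and near or below 0 in Zic cells without Vtn, and Aldh1a2 lies at -1.14 in the members and at -4.98 in Zic cells without Vtn.

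The members of a stage were not uniform. At E9.5, 14 members held Aldh1a2, 12 held Lum and 4 held both. This split was chosen after the values were seen. Members with Aldh1a2 held 55 UMIs of the imprinted gene Dlk1 against 4 in those without, 36 of Bex1 against 5, 11 of Lum against 32, 21 of Lgals1 against 65 and 24 of the nuclear receptor gene Nr2f1 against 51. Their median depth was 13250 UMIs against 10143.

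At E11.5, 8 members held both Abcc9 and Kcnj8, which encode the subunits of a potassium channel known from pericytes. This subset was likewise chosen after the values were seen. The 8 cells held 38 of 41 Abcc9 UMIs, 35 of 36 Kcnj8 UMIs, all 17 of Cspg4, all 13 of Mcam, 59 of 63 of Igfbp7 and 89 of 93 of Mef2c. The endothelial gene Pecam1 was at 0 in them, but 6 of the 8 held 17 of the 18 UMIs of Emcn, another gene of endothelium. They held little of what marked the other 46 members: 8 of 361 Lum UMIs, 6 of 304 Cxcl12, 12 of 283 Epha7, 1 of 72 Zic2 and none of 59 Cldn11. Col4a1 was present in both, at 1380 and 787 UMIs per 1000000. Rgs5 was not limited to the 8 cells, which held 34 of its 143 UMIs, at 291 UMIs per 1000000 against 231 in the other 46.

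Of the 83 Mki67 UMIs in E11.5 members, 43 lay in these 8 cells. Their median depth was 12205 UMIs against 9805 in the others, and 7 of the 8 lay in the cluster of 492 cells. Of all kept E11.5 cells, 27 held both Abcc9 and Kcnj8, 17 of these held Vtn and 14 held 3 or more Zic1 and Zic4 UMIs. Without the 8 cells, 132 genes were 2-fold or more higher at E11.5 than in the E9.5 members and 99 were lower, of 1323 with enough UMIs. The rule thus took 8 cells with both channel genes along with 46 cells in which the pair was absent or, in 4 cells, 1 of them was found.

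**Figure D5:**
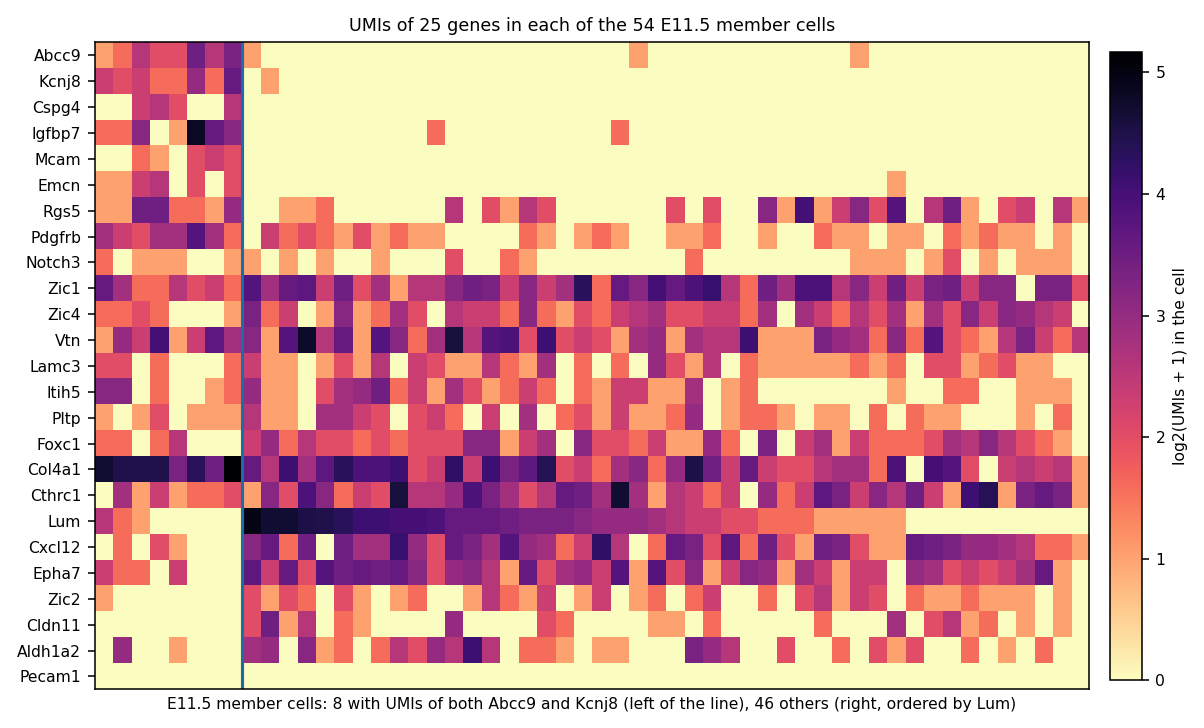
Heat map of 25 genes (rows) in the 54 E11.5 members (columns), coloured by log2 of UMIs plus 1, with the 8 members that held both Abcc9 and Kcnj8 to the left of the line and the 46 others to the right, ordered by Lum. Cspg4 and Mcam were found in the 8 alone, Lum and Cxcl12 mostly in the others, and Col4a1 in both.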

How the data were processed

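Interlimb somites of wild-type C57BL/6 embryos were dissociated and captured with the 10x Chromium system, 3 embryos pooled into 1 library at each stage. Per the labels and the study's methods, the authors made the deposited counts, whole UMI counts per gene and barcode, with Cell Ranger 3.0.1 on the mm10 genome, before their own cell filters. A difference in capture or depth between the libraries reaches every stage ratio.

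Cells with at least 200 and under 6500 genes and under 15% mitochondrial UMIs were kept. UMIs were summed over the members of a library and divided by their total, as UMIs per 1000000. The stages were compared for genes with at least 100 UMIs in the members of both, and members with other cells for genes with at least 100 UMIs together and at least 30 on one side after scaling. A gene was counted as higher or lower past 2-fold. Intervals are exact (95%) and cover counting error only. Genes were named by rule: the rule genes and markers, examples from 41 lists (439 genes), and the genes with the interval bound farthest from 0 (15 each way between stages, 20 higher and 5 lower than other cells, 5 each way per class); some genes so named are not reported here. The members and lists were chosen with earlier results of these data known. The calculation for the stage comparison was tested on simulated counts. There 95.4% of intervals held the true ratio, and 0.0754% of unchanged genes were called past 2-fold. Of genes with a true 2-fold rise 23.1% were called, and of those with a true 2-fold fall 44.4%. At a true 4-fold rise 100% were called, and at a 4-fold fall 44.9%, the share of those that kept 100 UMIs. The call thus missed most true changes of 2-fold. Clusters came from 2000 variable genes without the 9 rule genes, 30 principal components and 15 neighbours (Leiden, resolution 0.4). Doublets were called with Scrublet at an expected rate of 0.08. Gene positions are from GENCODE on GRCm38, the build of mm10. Python 3.11.15, scipy 1.17.1, pandas 2.3.3 and scanpy 1.11.5 were used. Alternatives changed the rule, the filters, the minimum, the fold and the scaling.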

Additional observations from a re-analysis of the deposited data

How the results depend on the processing

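No paired analysis was possible because each stage has 1 library. For the same reason no library could be left out, and the depth of 26 and 54 members limits the genes that can be compared. With a Zic sum of at least 5, members were 0.112% of kept E9.5 cells, 17 genes were higher and 11 lower than in other cells at E9.5, and 5 were lower than in Zic cells without Vtn at that stage. With Vtn of at least 2, the E9.5 share was 0.0914%, the stage counts were 112 higher and 60 lower, the E9.5 counts over other cells 16 and 9, and 3 genes were lower than in Zic cells without Vtn at E9.5. With cells thinned to 5000 UMIs before the rule, just 6 and 38 members remained and the E9.5 share was 0.0644%. The counts were then 48 higher and 21 lower between stages, 1 and 2 over other cells and 1 and 0 over Zic cells without Vtn at E9.5, and 108 and 56, and 97 and 52, in the same comparisons at E11.5. A minimum of 50 UMIs gave 463 higher and 208 lower genes between stages, a minimum of 300 gave 58 and 34 (and 2 higher over Zic cells without Vtn at E9.5), and no minimum beyond 1 UMI gave 2497 and 888. At 1.5-fold the counts were 306 and 302 between stages, 128 and 81 over other cells and 54 and 54 over Zic cells without Vtn at E9.5, and 760 and 324, and 705 and 355, at E11.5. With the whole interval past 2-fold they were 84 and 39 between stages, 29 and 13, and 0 and 4, at E9.5, and 201 and 62, and 183 and 37, at E11.5. The cause of these moves was not tested beyond the number of cells and genes each setting leaves. For the genes named by rank, log2 ratios changed sign in 8 of 2532 values, all of globins. Genes printed as examples of a list were not recomputed under each setting, and of these the direction of Dlk1 turned without the 8 members with both Abcc9 and Kcnj8. With a Zic sum of at least 5, Hbb-y and Hba-x over Zic cells with En1 stood at 0.35 and 0.57. After thinning, Hbb-y stood at 2.40 over Zic cells without Vtn and 1.66 over sclerotome cells at E9.5, and Hba-x at 0.77 over Zic cells with En1. With doublet calls left out, Hbb-y stood at 0.53 over E9.5 sclerotome cells, and Hbb-y and Hba-x at 0.11 and 0.75 over Zic cells with En1. Of 170 counts of genes under alternatives 125 stayed within 1.5 times, and leaving out the 8 members with both Abcc9 and Kcnj8, a choice made after seeing the data, moved none of them beyond that.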

Other observations

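Further signalling lists held genes in both directions in the E11.5 members against all other kept cells, where 9.92% of all genes were higher and 3.27% lower. Of 6 Eph and ephrin genes 3 were higher (Epha7, Efnb1 and Efnb2) and 2 lower (Epha3 and Epha4), with a median log2 ratio of 0.41. Of 5 retinoic acid pathway genes 1 was higher and 2 were lower, with a median of 0.48. Of 4 axon guidance ligand genes and receptors Sema3a and Nrp1 were higher (median 0.68). Of 6 dermis genes Lum, Dcn and Ebf1 were higher and Crabp1, Gas1 and Ebf2 lower (median 0.12). Bmp7 was the 1 of 6 Bmp pathway genes past 2-fold (median 0.64), Tgfb2 was lower among 3 Tgf-beta genes (0.10), Spry2 was lower among 2 Fgf genes (-1.07), and among 4 Hedgehog genes Ptch1 was higher and Gas1 lower (0.04). Itgb5 was higher among 3 vitronectin receptor and partner genes (0.76). The median over all genes was 0.08.

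Mural cell genes were 4 higher (Pdgfrb, Rgs5, Kcnj8 and Abcc9) and 1 lower (Acta2) of 6, with a median of 3.84, and all 4 of the higher genes passed the minimum through the members alone. The 8 members with both Abcc9 and Kcnj8 held 38 of 41 Abcc9 UMIs, 35 of 36 of Kcnj8 and 46 of 92 of Pdgfrb, and in the other 46 members these genes stood at 6.36, 2.12 and 97.6 UMIs per 1000000. Zic2 and Zic5 of the Zic family were both higher (median 4.03), and both passed the minimum through the members alone. Of 10 Igf pathway genes 3 were higher and 1 was lower (median 0.11). Neuron genes (3 of 3) and muscle genes (4 of 4) were lower, with medians of -3.03 and -6.32, but each passed the minimum through the other kept cells alone, which fixed its direction.

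Between the stages, short lists within the members gave few genes with enough UMIs, and 11.3% of all genes were higher and 6.75% lower. Of the genes named here Ebf1, Epha7, Efnb1, Pdgfrb, Rgs5, Cxcl12, Notch1 and Hes1 passed the minimum through E11.5 alone. At E11.5, 2 of 2 dermis genes (Lum and Ebf1, median 2.02) and 2 of 2 Eph and ephrin genes (Epha7 and Efnb1, 2.55) were higher. So were 2 of 2 mural genes (Pdgfrb and Rgs5, 2.93 with the 0 E9.5 UMIs of Rgs5 set to 3, so not exact). For Pdgfrb this rests on the same 8 cells, since the other 46 stood at 97.6 UMIs per 1000000 against 74.1 at E9.5, which is under 2-fold. Of 4 meninges genes Cxcl12 and Nr2f2 were higher and Aldh1a2 lower (0.81). Of 3 paraxial mesenchyme genes Foxc1 was higher (0.49), of 3 Bmp pathway genes Id3 (0.13), and of 4 Notch pathway genes Notch1 and Hes1 (0.93), Notch1 by less than 2-fold without those 8 cells. Neither the 1 Wnt target gene (0.23) nor the 1 Wnt ligand or receptor gene (0.34) passed 2-fold. The median over all genes was -0.07.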
